A study of Mus musculus with 20 samples.

Results

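The genes described here are the UDP-glucuronosyltransferases (UGTs), the cytosolic sulfotransferases (SULTs) and the PAPS synthases Papss1 and Papss2 in mouse liver. Members were taken by gene symbol, as every gene named Ugt1, Ugt2, Ugt3 or Ugt8 or Sult1 to Sult6 with its letter and number, plus Papss1 and Papss2. The symbols gave 41 members among the 37681 genes of each table. Of these, 30 were detected (5 or more reads in 5 of 10 libraries, in any table) and were tested among 15578 detected genes.

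RNA came from the livers of 10 male C57/BL6 mice (C57/B6J from Jackson Labs in the growth protocol) aged 12 weeks. Of these, 5 mice had received IL-1β at 20 µg/kg and 5 had received saline (referred to as untreated), by intraperitoneal injection, and livers were taken 4 h later. Aliquots of each RNA sample were made into poly-A selected libraries for Illumina (paired-end) and for Ion Torrent (single-end), giving 20 libraries, and 3 alignments (GSNAP, STAR, and STAR whose unaligned reads went to Bowtie2, written STAR + Bowtie2) of each platform gave 6 tables of counts. Totals per library were 10568530 to 12008799 counts on Illumina and 12199528 to 16439683 on Ion Torrent. Values per mouse are listed for saline mice UNT_9574, UNT_9575, UNT_9576, UNT_9580 and UNT_9584 and for IL-1β mice ILB_9577, ILB_9578, ILB_9579, ILB_9582 and ILB_9583, in that order, and levels are given as CPM, counts scaled by library total and, unless stated otherwise, by TMM factor. A gene was called where the adjusted p (edgeR's quasi-likelihood test with Benjamini-Hochberg adjustment over all genes tested) was below 0.05, and log2 fold changes give IL-1β relative to saline within a table. Each group is a set of separate mice that differ by treatment, so the p-values describe the spread among these mice.

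Conjugation is the step by which the liver makes bilirubin, steroids, bile acids and drugs water soluble for excretion. UGTs sit in the endoplasmic reticulum and join glucuronic acid, or in the UGT3 family another sugar, from a UDP-sugar to the substrate. SULTs work in the cytosol and take sulfate from PAPS, which the bifunctional enzymes Papss1 and Papss2 make from ATP and sulfate.

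Liver identity and the makeup of the samples were read from marker genes. All 6 hepatocyte markers (Alb, Apoa1, Ttr, Serpina1c, Cps1 and Cyp2e1) were detected, and their summed level in the Illumina GSNAP table was 94986 to 115409 CPM in saline mice and 67685 to 81257 in IL-1β mice. Alb, Cps1 and Cyp2e1 were lower in all 6 tables, with Alb at a log2 fold change of -0.54 to -0.46. Ttr was called lower in 3 tables and Serpina1c in 2, and Apoa1 was called in none. Of 6 neutrophil markers, 3 were detected (S100a8, S100a9 and Retnlg), and all 3 were higher in all 6 tables. The summed neutrophil markers were at 0.753 to 2.38 CPM in saline mice and 40.8 to 86.1 in IL-1β mice, and of 4 exocrine pancreas markers Cpa1, Ctrb1 and Pnlip were at 0 in every mouse of that table. The fourth, Cela1, was called lower in all 6 tables and set the sum of the list, 7.45 to 10.9 CPM in saline mice and 4.55 to 8.4 in IL-1β mice. In whole tissue, fewer hepatocytes, less RNA per hepatocyte and a fall of the hepatocyte marker genes alone cannot be told apart. The part of these shifts in the values below was not tested. Cholangiocyte genes (4 of 4 detected, Epcam and Sox9 higher) summed to 4.30 to 6.11 CPM in saline mice and 9.78 to 15.4 in IL-1β mice of that table. Of 5 Kupffer cell markers, all detected, Clec4f and Vsig4 were lower and Marco higher in all 6 tables, and the sum was 102 to 175 CPM in saline mice and 55.5 to 128 in IL-1β mice. Of 4 stellate cell markers, Lrat and Reln were lower in all 6 (sums of 228 to 290 and 155 to 245 CPM). Of 4 sinusoidal endothelium markers, Clec4g was lower and Lyve1 higher in all 6 (sums of 76.2 to 119.6 and 61.6 to 115.6 CPM). Of 4 lymphocyte markers 2 were detected, and Cd79a was lower in 3 tables (sums of 0.586 to 1.82 and 0.380 to 0.979 CPM). Mouse UNT_9584 stood apart: its Illumina and Ion Torrent libraries deviated from their group means with a correlation of 0.197 to 0.249, against 0.591 to 0.746 for the other 9 mice. The study also reported a lower correlation between platforms and shifted Ion Torrent read lengths for this sample. It proposed that read length could add technical variability. The part of this in the values of UNT_9584 below was not tested.

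With IL-1β, most detected members fell. Of the 30 tested members, 17 were called lower and 3 higher in the Illumina GSNAP table, against 23.9% of all genes tested called lower and 23.7% called higher. The Illumina STAR table gave 17 lower and 3 higher (22.9% and 22.7% of all genes), and Illumina STAR + Bowtie2 gave 20 lower and 3 higher (24.4% and 22.9%). The Ion Torrent tables gave 16 lower and 2 higher with GSNAP (23.9% and 22.5% of all genes), 17 and 3 with STAR (21.8% and 20.3%), and 18 and 2 with STAR + Bowtie2 (24% and 22.8%). The same direction was called in all 6 tables for 16 members on the lower side and 2 members on the higher side, against 17.6% and 17.3% of all genes tested. Of the calls in these counts, those of Sult1e1 (higher, every table) and Ugt1a8 (lower, Illumina STAR + Bowtie2) are given as a description. Sult1e1 reached the minimum of 5 reads in 5 libraries only through its 5 IL-1β libraries, in the Ion Torrent GSNAP and STAR + Bowtie2 tables. Ugt1a8 reached it only through the 5 saline libraries of the Illumina STAR + Bowtie2 table. A difference between groups was thereby built into their choice. Without both genes, 17, 17, 19, 16, 17 and 18 of 28 members were called lower and 2, 2, 2, 1, 2 and 1 higher, in the order of tables above.

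In CPM, the saline and IL-1β mice did not overlap, on the lower side, for 16 of the 30 members in the Illumina GSNAP table (17% of all genes tested) and 15 in the Ion Torrent GSNAP table (17%). On the higher side this held for 2 members in each (18.2% and 16.8% of all genes). Sult1e1, tested only through its IL-1β libraries, was 1 of the 2 in both tables, as a description.

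The median log2 fold change of the 30 members was -0.68 with GSNAP and -0.73 with each of the other alignments on Illumina. On Ion Torrent it was -0.57, -0.53 and -0.55. Over all genes tested the median lay between -0.01 and 0. The 16 members that fell in all 6 tables were Papss2, Sult1b1, Sult1c2, Sult1d1, Ugt1a1, Ugt1a6a, Ugt1a6b, Ugt1a9, Ugt2a3, Ugt2b1, Ugt2b34, Ugt2b35, Ugt2b36, Ugt2b5, Ugt3a1 and Ugt3a2, and Papss1 rose in all 6. Sult1e1 had fitted values above 0 in all 6 tables, as a description for the reason given above. Another 5 members were called in 1 to 4 tables (Sult5a1, Ugt1a10, Ugt1a7c and Ugt1a8 lower, Ugt2b38 higher), and 7 were called in none. The members together took 0.646% ± 0.0742 (SD, n = 5) of all Illumina GSNAP counts in saline mice and 0.347% ± 0.043 (SD, n = 5) in IL-1β mice. On Ion Torrent (GSNAP) they took 0.435% ± 0.016 and 0.272% ± 0.0339 (SD, n = 5 each).

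**Figure D1:**
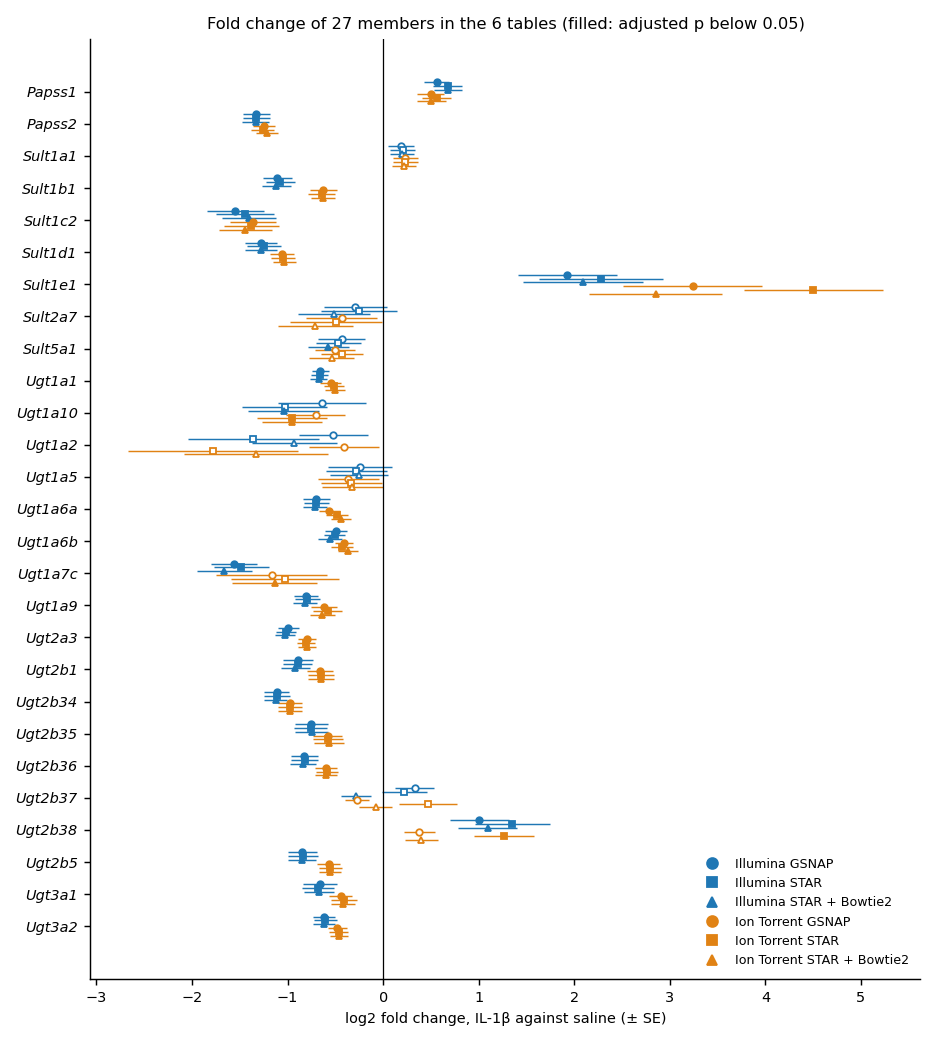
Log2 fold change (IL-1β relative to saline, ± SE of the edgeR fit, n = 5 mice a group) of 27 tested members in the 6 tables; blue marks Illumina, orange Ion Torrent, the symbol the aligner, and filled symbols an adjusted p below 0.05. Ugt1a8, Ugt2a1 and Sult2a6, with means under 2 reads per group in the Illumina GSNAP table, are left out, and 16 members are filled on the lower side in every table.

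By level, the UGT2 family dominated. UGT2 reads made up 72.9% of all member reads in saline mice and 68.8% in IL-1β mice in the Illumina GSNAP table, and 73.1% and 69.6% in the Ion Torrent GSNAP table. Levels of different genes were compared per kilobase of exon, as CPM per kilobase in saline mice of the Illumina GSNAP table. Ugt2b5 was first at 632 ± 144 (SD, n = 5), followed by Ugt2b36 at 447 ± 95.5 and Ugt2b1 at 361 ± 67.7, and each of these overlapped its neighbour over mice. After a gap with no overlap came Ugt2a3 at 176 ± 23.8, Sult1a1 at 171 ± 32.7, Ugt2b34 at 171 ± 16.4, Ugt3a2 at 133 ± 22.5, Ugt1a1 at 119 ± 8.64 and Ugt2b35 at 100.3 ± 13.3, which overlapped from neighbour to neighbour. Papss2 (61.8 ± 10.9) and Sult1d1 (55.9 ± 7.87) formed the next step, and Papss1 lay far lower at 5.97 ± 0.612. In IL-1β mice the phenol sulfotransferase Sult1a1, at 195 ± 24.2, stood beside Ugt2b1 at 195 ± 38. Ugt2b1 was called lower there and Sult1a1 was not called.

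The PAPS synthases moved in opposite directions. Papss2, the form that prevails in liver, had 2375, 2524, 2569, 2824 and 3285 reads in saline mice and 1111, 709, 945, 1138 and 926 in IL-1β mice of the Illumina GSNAP table. Every IL-1β mouse was below every saline mouse, and the fitted change was 2.51-fold lower (log2 fold change -1.33, SE 0.14, adjusted p = 3.26e-06, edgeR). The Ion Torrent GSNAP libraries of the same mice had 2204, 2265, 2216, 2536 and 2340 reads against 1025, 696, 892, 1025 and 777. Over the 6 tables the log2 fold change of Papss2 was -1.34 to -1.22, with adjusted p from edgeR of 2.57e-07 to 3.26e-06.

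Papss1 had 208, 208, 205, 178 and 148 reads in saline mice and 276, 315, 236, 210 and 200 in IL-1β mice of the Illumina GSNAP table. The groups overlapped in reads but not in CPM, at 15.5 ± 1.59 against 22.9 ± 4.17 (SD, n = 5), and the log2 fold change was 0.56 (SE 0.13, adjusted p = 0.00263, edgeR). Ion Torrent reads (GSNAP) were 335, 343, 307, 267 and 290 against 451, 527, 338, 360 and 291, again with overlap in reads but not in CPM (highest saline mouse 21.76, lowest IL-1β mouse 21.82), and with a log2 fold change of 0.50 (SE 0.14, adjusted p = 0.00786, edgeR). In the other Ion Torrent tables Papss1 overlapped in CPM as well. Over the 6 tables its log2 fold change was 0.50 to 0.68, with adjusted p of 0.00132 to 0.0126 (edgeR). A rank-sum test of the reads, without scaling by library total or TMM factor, called Papss1 in none of the 6 tables (adjusted p 0.0659 to 0.181). The effects of the rank test and of the missing scaling were not separated. Without TMM factors edgeR no longer called Papss1 in the Ion Torrent STAR + Bowtie2 table (adjusted p = 0.0517). Papss1 lies on chromosome 3 (mm9 131227732 to 131306634) and Papss2 on chromosome 19 (32694495 to 32741677).

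**Figure D2:**
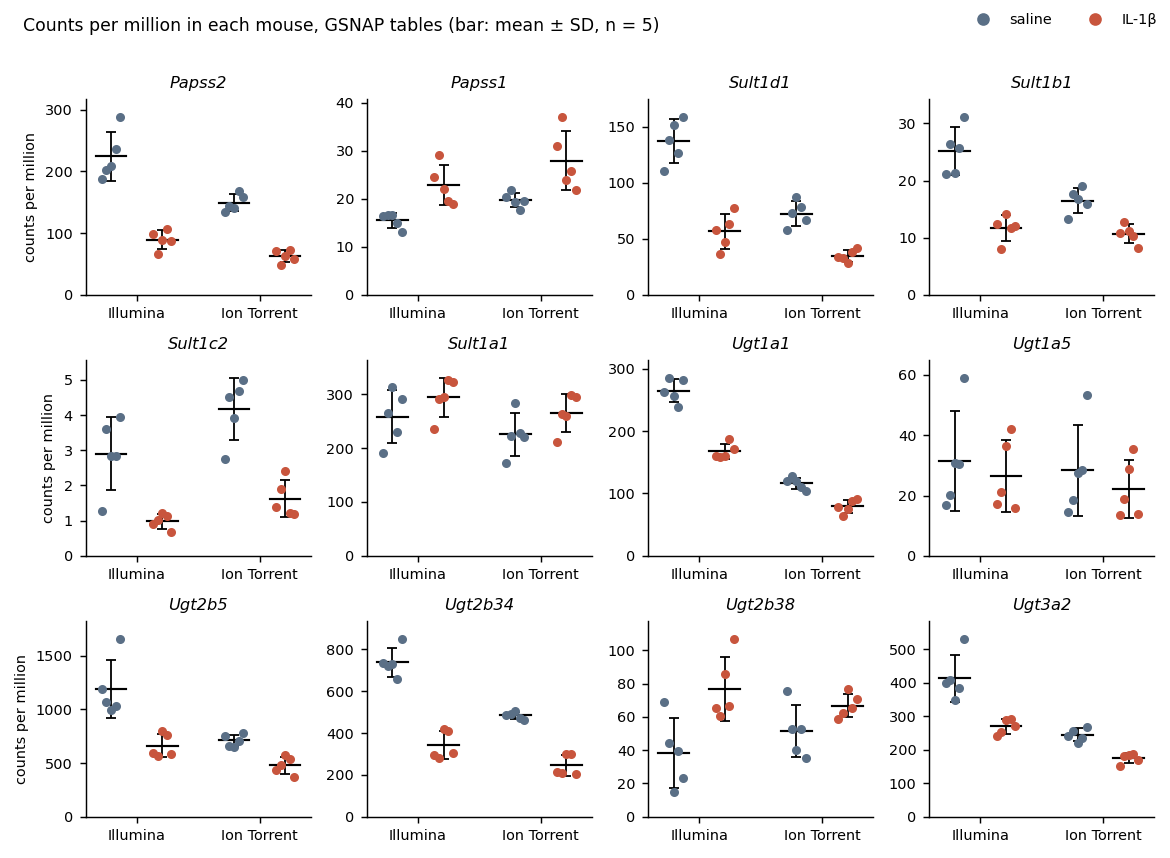
CPM of 12 members in each mouse in the GSNAP tables, saline in grey-blue and IL-1β in red, with the mean and SD over 5 mice. Papss2, Sult1d1, Sult1b1, Sult1c2, Ugt1a1, Ugt2b5, Ugt2b34 and Ugt3a2 lie lower in all IL-1β mice on both platforms, whereas the groups of Sult1a1, Ugt1a5 and Ugt2b38 overlap.

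The SULT1 family split by gene. Of its 6 members, Sult1b1, Sult1c2 and Sult1d1 fell in all 6 tables, Sult1a1 was called in none, and Sult1c1 had 0 reads in all 60 columns. Sult1e1 had fitted log2 fold changes above 0 in all 6 tables and was tested on the strength of its IL-1β libraries. Sult1d1, which sulfates catecholamines and other amines, had 1401, 1733, 1875, 1511 and 1811 reads in saline mice and 655, 396, 505, 678 and 821 in IL-1β mice of the Illumina GSNAP table. The same mice had 948, 1158, 1377, 1179 and 984 reads against 487, 464, 401, 531 and 555 on Ion Torrent (GSNAP). The groups did not overlap on either platform, and the Illumina log2 fold change was -1.28 (SE 0.17, adjusted p = 2.58e-05, edgeR), with -1.28 to -1.03 over the 6 tables. On both platforms the groups of Sult1b1 were apart as well. Sult1b1, a thyroid hormone and phenol sulfotransferase, had 267, 331, 263, 308 and 355 reads against 140, 86, 151, 126 and 127. The log2 fold change was -1.11 (SE 0.15, adjusted p = 3.53e-05, edgeR) in that table and -0.63 (SE 0.14, adjusted p = 0.00163, edgeR) in the Ion Torrent GSNAP table.

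Sult1c2 was a low-count gene with 16, 45, 35, 34 and 45 reads in saline mice and 10, 11, 13, 12 and 7 in IL-1β mice (Illumina GSNAP). Saline mouse UNT_9574 lay closest to the IL-1β mice without reaching them, and the log2 fold change was -1.55 (SE 0.30, adjusted p = 0.000623, edgeR), with -1.55 to -1.36 over the 6 tables. Sult1a1, the phenol sulfotransferase with the highest level among the SULTs, had 2403, 3324, 3869, 2739 and 3324 reads against 2643, 3132, 3157, 3495 and 3401. On Ion Torrent the reads were 2817, 3519, 4475, 3432 and 3276 against 3057, 3737, 3664, 4167 and 3919. These groups overlapped on both platforms, and its log2 fold change was 0.19 to 0.23 over the 6 tables, with standard errors of 0.13 to 0.14 and adjusted p of 0.158 to 0.279 (edgeR).

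Sult1e1, the estrogen sulfotransferase, had 1, 1, 4, 3 and 0 reads in saline mice and 8, 7, 4, 5 and 8 in IL-1β mice of the Illumina GSNAP table. On Ion Torrent (GSNAP) it had 0, 0, 0, 4 and 0 reads against 5, 7, 8, 9 and 10, so that every IL-1β mouse was above every saline mouse there, while the Illumina groups met at 4 reads. Summed over mice, the IL-1β libraries held 32 reads and the saline libraries 9 in the Illumina GSNAP table, 39 and 4 in the Ion Torrent GSNAP table, and 33 and 1 with STAR on Ion Torrent. Since Sult1e1 passed the filter on low reads only through IL-1β libraries, these values are a description. Filtered table by table, it was tested in 2 of the 6 tables.

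The other sulfotransferase families had few reads. Of the 8 Sult2 members, Sult2a6 and Sult2a7 were tested and neither was called in any table; Sult2a7 had 4, 8, 10, 7 and 11 reads in saline mice and 6, 6, 7, 5 and 5 in IL-1β mice (Illumina GSNAP), with overlapping groups. Sult5a1, an orphan sulfotransferase, had 129, 71, 76, 95 and 83 reads against 43, 32, 67, 84 and 71. Its groups overlapped, and a call came, with all mice, from the Illumina STAR + Bowtie2 table and no other (log2 fold change -0.57, SE 0.22, adjusted p = 0.0422, edgeR), which was lost on leaving out any of mice UNT_9574, UNT_9576, UNT_9580, ILB_9577 or ILB_9578 (adjusted p of up to 0.129). Calls were gained without ILB_9582 in the Illumina STAR (adjusted p = 0.0415), Ion Torrent GSNAP (0.0470) and Ion Torrent STAR + Bowtie2 (0.0279) tables, and in both of these Ion Torrent tables without UNT_9575 (0.0267 and 0.0488) and without TMM factors (0.0284 and 0.0321, edgeR). In the 11 members that were not tested (Sult1c1, Sult2a1 to Sult2a5, Sult2b1, Sult3a1, Sult4a1, Sult6b1 and Ugt8a), no library held more than 6 reads.

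The UGT1 family is a single locus on chromosome 1 (mm9, 89951963 to 90116577), where each gene has its own first exon and joins it to common downstream exons. In the annotation, 3 exons of 132, 88 and 220 bases are carried by all 9 Ugt1 genes. A read or read pair that lies wholly within these common exons cannot tell the genes apart. The shortest of the common exons, at mm9 chr1:90112370-90112457 on the plus strand, is printed below.
Ugt1 common exon: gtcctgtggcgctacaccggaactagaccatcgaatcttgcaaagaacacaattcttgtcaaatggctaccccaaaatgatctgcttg
The share of each Ugt1 gene's exon bases that other genes also cover was 48.8% in Ugt1a6a to 82.7% in Ugt1a1, and how the counts of these exons were divided among the genes is not given in the sources used here. The values below are therefore uncertain as levels of single Ugt1 genes.

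Ugt1a1, the enzyme that conjugates bilirubin, had 3313, 3569, 3153, 2860 and 3216 reads in saline mice and 1800, 1714, 1710, 2012 and 1804 in IL-1β mice of the Illumina GSNAP table. The groups were far apart, with a log2 fold change of -0.66 (SE 0.09, adjusted p = 2.88e-05, edgeR), which is 1.58-fold lower. On Ion Torrent (GSNAP) the reads were 1957, 2016, 1889, 1663 and 1535 against 1142, 913, 1063, 1236 and 1207, also without overlap, and over the 6 tables the log2 fold change was -0.67 to -0.51. Ugt1a9, which conjugates phenols, had 727, 522, 681, 506 and 586 reads against 313, 261, 383, 279 and 291 (Illumina GSNAP), again without overlap. Ugt1a9, Ugt1a6a and Ugt1a6b fell in every table too, with log2 fold changes of -0.82 to -0.58, -0.72 to -0.44 and -0.56 to -0.37. Ugt1a7c had 27, 32, 25, 30 and 36 reads against 11, 5, 11, 10 and 8 in the Illumina GSNAP table (log2 fold change -1.56, SE 0.24, adjusted p = 0.0001, edgeR). Its Ion Torrent reads (GSNAP) were 7, 2, 4, 12 and 8 against 3, 3, 4, 0 and 3, and these groups overlapped and gave no call (adjusted p = 0.115, edgeR). Its 1 Ion Torrent call, with STAR + Bowtie2 (adjusted p = 0.0483, edgeR), was lost with DESeq2, with limma-voom, without a filter on low counts and on leaving out any of 8 mice in turn (adjusted p of up to 0.148).

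Among the rest of the locus, Ugt1a8 was the tested member whose fitted sign differed between tables while it was called in 1 of them. In the Illumina STAR + Bowtie2 table it had 7, 8, 8, 9 and 6 reads against 3, 2, 4, 4 and 2 (log2 fold change -1.16, SE 0.33). It passed the filter on low reads through these 5 saline libraries and no others, so the call is a description. In the other 5 tables no library held more than 3 reads of Ugt1a8. Ugt1a10 was called lower in 3 tables, of which every one lost the call on leaving out at least 2 of the mice in turn. The rank-sum test lost 2 of these calls, and DESeq2, limma-voom and the fit without a filter lost 1 each (adjusted p of up to 0.0935), whereas calls were gained without TMM factors in the Illumina STAR and Ion Torrent GSNAP tables (adjusted p = 0.0386 and 0.0420, edgeR) and with limma-voom in the latter (adjusted p = 0.0479). Leaving out ILB_9583 or UNT_9574 also gave a Ugt1a10 call in the first of these tables, and leaving out ILB_9579 in the second (adjusted p of 0.0127 to 0.0268, edgeR). Ugt1a2 and Ugt1a5 were called in none, although Ugt1a2 was called lower in 4 tables on leaving out UNT_9574 (adjusted p of 0.0186 to 0.0487, edgeR). Without UNT_9575, Ugt1a2 was called lower in the Ion Torrent STAR table as well.

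Ugt1a5 varied widely between mice of a group on both platforms, and it was singled out after its values were seen. It had 212, 251, 381, 363 and 673 reads in saline mice and 192, 227, 389, 452 and 167 in IL-1β mice on Illumina (GSNAP). On Ion Torrent it had 237, 294, 434, 428 and 789 against 196, 266, 408, 494 and 187. Mouse UNT_9584 was the highest saline mouse and ILB_9582 the highest IL-1β mouse on both platforms, and in CPM the highest saline mouse exceeded the lowest by 3.52 times on Illumina and 3.68 times on Ion Torrent. The treatment groups overlapped, with a log2 fold change of -0.24 (SE 0.33, adjusted p = 0.587, edgeR) in the Illumina GSNAP table. Without mouse UNT_9584 the value there was 0.11 (adjusted p = 0.792), and its sign turned positive in 5 of the 6 tables.

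Promoters of members, from RefSeq for GRCm38.p6 (250 bases before to 50 after a start site), were searched on both strands for short letter patterns. Entries were found for 27 of the 30 tested members, with 30 promoters. Letters of the C/EBP type, TTGCNNAA, were in 5 of 30 (16.7%, against 10.8% of all 32851 promoters of that set), the TATA box letters TATAAA in 4 of 30 (13.3%, against 13.6%), and the xenobiotic response element core GCGTG in 6 of 30 (20%, against 32.4%). A match is a description of letters and not a binding site.

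All 9 UGT2 members and 3 SULT1 genes stand side by side on chromosome 5 (mm9, 87318792 to 88020636), in 701.8 kb that hold 14 annotated genes, 12 of them members and the other two annotated as U6. From Ugt2b34 the order is Ugt2b1, Ugt2b35, Ugt2b36, Ugt2b5, Ugt2b37, Ugt2a3, Ugt2b38, Ugt2a1, Sult1b1, Sult1d1 and Sult1e1. Along this stretch 8 members were called lower in all 6 tables (17.6% of all genes tested) and Ugt2b38 was called higher in 4. Sult1e1 had fitted values above 0 in all 6, with the limit given above. Ugt2b37 and Ugt2a1 were called in none. Sult1d1 (log2 fold change -1.28 in the Illumina GSNAP table) and Sult1e1 (1.93) are direct neighbours on the minus strand.

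**Figure D3:**
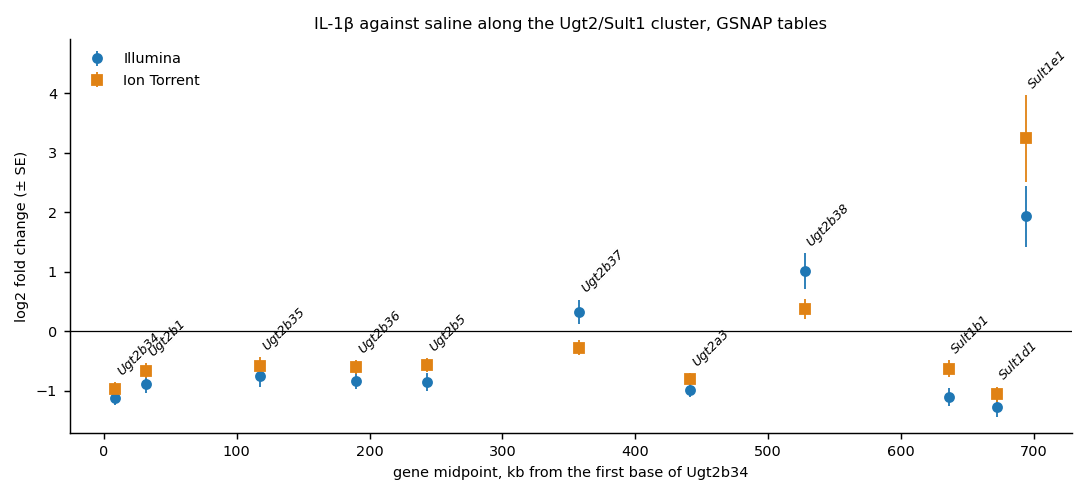
Log2 fold change (± SE of the edgeR fit, n = 5 mice a group) in the GSNAP tables against the position of 11 members along the chromosome 5 cluster, in kb from the first base of Ugt2b34; Ugt2a1 is left out for its low reads. Ugt2b38 and Sult1e1, the last gene of the cluster, lie above 0 on both platforms, and Ugt2b37 lies above 0 on Illumina and below 0 on Ion Torrent.

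Ugt2b34 had 9269, 8991, 8979, 7841 and 9690 reads in saline mice and 3329, 3004, 4459, 4384 and 3201 in IL-1β mice of the Illumina GSNAP table. On Ion Torrent (GSNAP) it had 7974, 7765, 8019, 7143 and 6836 reads against 3097, 3001, 4255, 4194 and 2731. No IL-1β mouse reached the saline range on either platform, and the Illumina log2 fold change was -1.11 (SE 0.13, adjusted p = 8.08e-06, edgeR), with -1.13 to -0.97 over the 6 tables. Ugt2b5, which had the most reads of all members, had 15041, 13353, 12297, 12385 and 18897 reads against 6696, 6136, 8525, 8137 and 6181. Its groups were apart, mouse UNT_9584 was the highest, and the log2 fold change was -0.85 (SE 0.15, adjusted p = 0.000368, edgeR), or -0.70 (adjusted p = 0.000396) without that mouse. On Ion Torrent (GSNAP) Ugt2b5 had 12376, 10461, 10298, 10659 and 11520 reads against 6307, 6872, 8088, 7489 and 4917, with a log2 fold change of -0.57 (SE 0.12, adjusted p = 0.00108, edgeR).

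The other UGT2 members that fell in every table were Ugt2a3 (log2 fold change -1.03 to -0.79 over the 6 tables), Ugt2b1 (-0.92 to -0.65), Ugt2b36 (-0.84 to -0.59) and Ugt2b35 (-0.76 to -0.57). Ugt2a3 had 3830, 4534, 4734, 4450 and 5060 reads in saline mice and 1944, 1914, 2233, 2060 and 1960 in IL-1β mice (Illumina GSNAP), and its groups lay apart (log2 fold change -0.99, SE 0.11, adjusted p = 3.51e-06, edgeR). Ugt2b1 had 11507, 11237, 8547, 11563 and 13435 reads against 4972, 4379, 7023, 5662 and 4971. Here IL-1β mouse ILB_9579 came closest to the saline mice, among which UNT_9576 was lowest, and on Ion Torrent (GSNAP) these 2 mice overlapped in CPM although Ugt2b1 was called there as well (log2 fold change -0.66, SE 0.13, adjusted p = 0.000752, edgeR). Ugt2b36, the second most abundant member per kilobase, had 11091, 10901, 9277, 10036 and 14359 reads against 5394, 4885, 6445, 6254 and 4976. Its groups were apart, with mouse UNT_9584 the highest.

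Ugt2a1, known from olfactory tissue, had 1, 0, 1, 1 and 0 reads in saline mice and 0 in every IL-1β mouse of the Illumina GSNAP table, and it had 0 reads in all libraries of both STAR tables.

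Ugt2b38 went the other way from its neighbours, and it was singled out after its values were seen. In the Illumina GSNAP table it had 872, 553, 187, 470 and 268 reads in saline mice and 733, 653, 914, 713 and 1126 in IL-1β mice. Saline mouse UNT_9574 lay within the IL-1β range and the other 4 below it, and the log2 fold change was 1.01 (SE 0.31, adjusted p = 0.0135, edgeR). With STAR it was 1.35 on Illumina (SE 0.40, adjusted p = 0.0112) and 1.26 on Ion Torrent (SE 0.31, adjusted p = 0.00351, edgeR). With the other alignments on Ion Torrent, GSNAP and STAR + Bowtie2, it was 0.38 and 0.40, and neither was called (adjusted p = 0.0747 and 0.0671, edgeR). The Ion Torrent GSNAP reads were 1237, 830, 633, 798 and 524 against 853, 883, 1083, 915 and 946, so that UNT_9574 was above every IL-1β mouse and the other saline mice were below them. Without mouse UNT_9574 both of these tables gave a call, at 0.57 and 0.60 (adjusted p = 0.00398 and 0.00264, edgeR). A rank-sum test of unscaled reads gave Ugt2b38 no call in any of the 4 tables in which edgeR called it (adjusted p of 0.110 to 0.120).

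The reads of Ugt2b38 depended on the aligner. In the 5 saline mice together, 4022 reads were counted on Ion Torrent after GSNAP, 1409 after STAR and 4993 after STAR + Bowtie2, whereas the IL-1β mice held 4680, 2993 and 5942. The Illumina tables held 2350, 1742 and 2185 in saline mice and 4139, 3871 and 4172 in IL-1β mice. Ugt2b37 varied as well, with 1328, 248 and 897 saline reads on Ion Torrent and 350, 330 and 663 on Illumina. In the Illumina GSNAP table Ugt2b37 had 78, 83, 47, 92 and 50 reads in saline mice and 66, 68, 84, 72 and 99 in IL-1β mice, with overlapping groups. Its fitted log2 fold change ran from -0.29 to 0.47 over the 6 tables and was called in none (adjusted p 0.0993 to 0.733, edgeR). Under single alternatives Ugt2b37 gained calls in both directions: lower in the Ion Torrent GSNAP table without TMM factors (-0.38, adjusted p = 0.0297) or without UNT_9575 (-0.34, adjusted p = 0.0453) and in the Illumina STAR + Bowtie2 table without UNT_9576 (-0.39, adjusted p = 0.0279), and higher in the Ion Torrent STAR table without UNT_9574 (0.76, adjusted p = 0.0436). Ugt2b5 held 55314, 54309 and 72684 saline reads on Ion Torrent, in the same order of aligners, and 71973, 72307 and 73186 on Illumina. These are reads without scaling, and the library totals of the tables ranged from 12199528 to 16439683 on Ion Torrent and from 10568530 to 12008799 on Illumina.

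**Figure D4:**
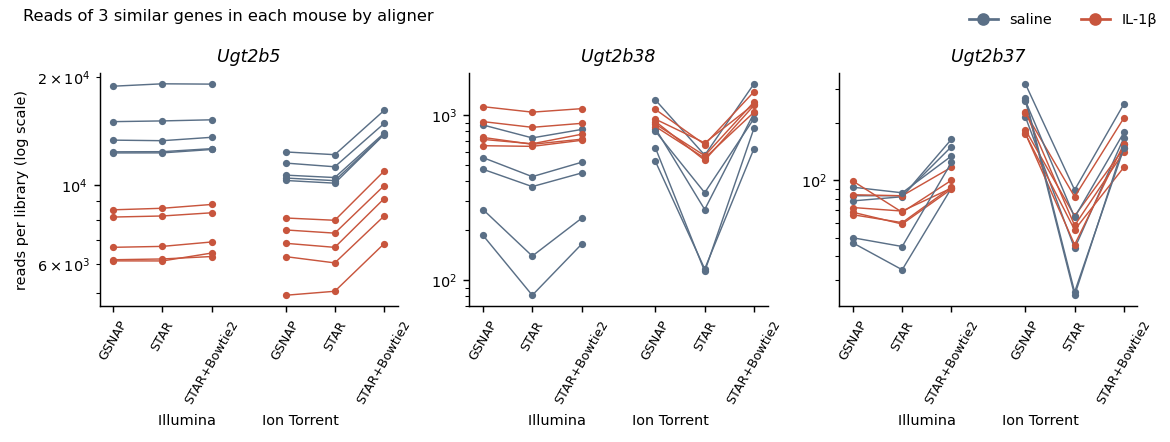
Reads per library (log scale) of Ugt2b5, Ugt2b38 and Ugt2b37 with each aligner, 1 line per mouse and platform, saline in grey-blue and IL-1β in red. In the Ion Torrent libraries the STAR values of Ugt2b38 and Ugt2b37 drop below those of GSNAP and STAR + Bowtie2 in all 10 mice, and for Ugt2b38 the drop is larger in each saline mouse than in any IL-1β mouse.

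These genes are close copies, which bears on how their reads could be assigned. The transcripts of Ugt2b5 and Ugt2b38 were identical at 95% of aligned positions, with an identical run of 444 bases, and 24.2% of the 100-base windows of Ugt2b38 also occurred in another gene. Ugt2b37 and Ugt2b38 matched at 93.1%, with a longest run of 118 bases, and Ugt2b36 and Ugt2b38 at 85.2%, with a longest run of 52 bases. The part of this likeness in the Ugt2b38 and Ugt2b37 values was not tested.

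The promoters of 4 of these genes (GRCm38.p6, minus strand, chr5:87092506-87092805, chr5:87140291-87140590, chr5:87254739-87255038 and chr5:87424154-87424453, in the order printed) are given to show how alike these near copies are upstream of their start sites. Capitals mark the TTGCNNAA letters, read on the reverse strand.
Ugt2b36: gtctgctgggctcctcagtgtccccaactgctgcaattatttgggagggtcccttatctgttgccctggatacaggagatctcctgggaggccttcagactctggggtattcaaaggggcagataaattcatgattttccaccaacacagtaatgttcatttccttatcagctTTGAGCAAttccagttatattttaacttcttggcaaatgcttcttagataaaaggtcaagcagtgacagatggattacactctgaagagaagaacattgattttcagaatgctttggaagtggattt
Ugt2b5: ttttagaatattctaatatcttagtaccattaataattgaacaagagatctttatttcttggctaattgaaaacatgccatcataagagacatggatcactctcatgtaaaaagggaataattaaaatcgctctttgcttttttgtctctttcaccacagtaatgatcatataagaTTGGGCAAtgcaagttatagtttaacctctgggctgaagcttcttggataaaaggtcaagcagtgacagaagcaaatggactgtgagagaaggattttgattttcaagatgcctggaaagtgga
Ugt2b37: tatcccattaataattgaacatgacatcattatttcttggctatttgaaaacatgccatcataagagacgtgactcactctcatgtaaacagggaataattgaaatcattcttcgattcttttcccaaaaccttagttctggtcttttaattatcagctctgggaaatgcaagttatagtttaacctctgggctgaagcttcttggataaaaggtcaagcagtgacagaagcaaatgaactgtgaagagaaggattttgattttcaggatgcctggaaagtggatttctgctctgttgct
Ugt2b38: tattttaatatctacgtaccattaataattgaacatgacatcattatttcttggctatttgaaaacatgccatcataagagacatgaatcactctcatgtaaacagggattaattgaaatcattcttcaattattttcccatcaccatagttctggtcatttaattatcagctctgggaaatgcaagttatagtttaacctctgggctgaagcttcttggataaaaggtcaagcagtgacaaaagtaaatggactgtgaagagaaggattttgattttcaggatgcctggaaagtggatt
The letters stood 77 and 74 bases before the start sites of Ugt2b36 and Ugt2b5, 4 before that of Ugt2b1, and at positions 5 and 35 from those of Ugt2a3 and Sult1c2. All of these genes were called lower in all 6 tables. The letters were not found in the windows of Ugt2b37 and Ugt2b38. They were also absent from those of Ugt2b34, Ugt2b35, Sult1b1, Sult1d1, Papss2, Ugt1a1, Ugt1a6a, Ugt1a9 and Ugt3a1, which were called lower in all 6. Aligned end to end, the promoters of Ugt2b5 and Ugt2b38 matched at 84.2% of 310 positions, those of Ugt2b37 and Ugt2b38 at 87.3% of 314, and those of Ugt2b5 and Ugt2b36 at 61.4% of 321.

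The UGT3 family, which uses sugars other than glucuronic acid, fell in both of its members. Ugt3a2 had 5026, 5087, 4280, 4587 and 6049 reads in saline mice and 2707, 2732, 3098, 3137 and 2852 in IL-1β mice of the Illumina GSNAP table. Ion Torrent reads (GSNAP) were 3938, 4051, 3477, 3552 and 3983 against 2219, 2568, 2618, 2631 and 2264. The groups did not overlap on either platform, and the Illumina log2 fold change was -0.62 (SE 0.12, adjusted p = 0.000524, edgeR), with -0.62 to -0.46 over the 6 tables. Ugt3a1 had 715, 810, 613, 558 and 1060 reads against 367, 397, 471, 509 and 373, with a log2 fold change of -0.66 (SE 0.17, adjusted p = 0.00565, edgeR). Mouse UNT_9584 was again the highest; without it the value was -0.47 (adjusted p = 0.00926, edgeR), and in the Ion Torrent STAR table the call of Ugt3a1 was lost without that mouse (adjusted p = 0.0667) and without IL-1β mouse ILB_9577 (adjusted p = 0.0552, edgeR).

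Whether the platforms gave different sizes of response was tested with a platform-by-treatment term in a fit of all 20 libraries per alignment that included each mouse as a block. For none of the alignments did a member pass an adjusted p of 0.05 in edgeR, against 0.0642%, 0.00642% and 0.077% of all genes tested, and neither DESeq2 nor limma-voom called any. At an unadjusted p below 0.05, 7, 8 and 9 of the 30 members passed, against 7.81%, 7% and 7.77% of all genes. The fitted change was smaller in size on Ion Torrent for 23, 22 and 22 of the 30 members, against 52.1%, 49.6% and 52.1% of all genes tested. Among the 2741 genes called lower in all 6 tables it was smaller for 51.7%, 51.7% and 54%, and among the 16 members of that set for 16, 16 and 15. The median term over members was 0.12, 0.18 and 0.18 on the log2 scale, against -0.02, 0 and -0.01 over all genes and 0.00036, 0.020 and 0.0035 over the 2741. Leaving out single mice moved the members' median over 0.099 to 0.25, 0.11 to 0.25 and 0.11 to 0.29. With GSNAP it was 0.25 without UNT_9580, 0.21 without ILB_9583 and 0.20 without UNT_9576. With STAR it was 0.11 without UNT_9584, and with STAR + Bowtie2 0.11 without UNT_9584 and 0.29 without ILB_9583. The smallest unadjusted p with GSNAP belonged to Ugt2b38, Ugt2b37 and Sult1b1. For Sult1b1 the term was 0.47 (SE 0.17, unadjusted p = 0.0103, adjusted p = 0.578, edgeR), and for Ugt2b37 it was -0.61 (SE 0.20, unadjusted p = 0.00544, adjusted p = 0.578, edgeR). With STAR and STAR + Bowtie2 the Ugt2b37 term was 0.28 and 0.19 (adjusted p = 0.785 and 0.740). For Ugt2b38 it was -0.70 with GSNAP (adjusted p = 0.159), -0.11 with STAR (adjusted p = 0.897) and -0.79 with STAR + Bowtie2 (adjusted p = 0.271, edgeR). Without mouse UNT_9584 the Ugt2b38 term passed with GSNAP (-0.62, adjusted p = 0.0271) and with STAR + Bowtie2 (-0.74, adjusted p = 0.00134, edgeR), and without mouse UNT_9574 it passed with STAR + Bowtie2 (-0.93, adjusted p = 0.048).

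The supply list held 9 genes. Ugp2, Ugdh and Slc35d1 serve the supply of UDP-glucuronic acid, and Slc26a1 and Slc13a1 the uptake of sulfate. Slc35b2 and Slc35b3 carry PAPS into the Golgi, whereas SULTs work in the cytosol. Bpnt1 and Impad1 remove PAP, the spent form of PAPS. Of the 9 genes, 8 were tested. Of these, 3 were called lower and 2 higher in the Illumina GSNAP table, against 23.9% and 23.7% of all genes tested, and the same 5 were called in all 6 tables. Ugp2, which makes UDP-glucose, had 5198, 5744, 5235, 5266 and 6196 reads in saline mice and 2214, 1987, 2459, 2546 and 2317 in IL-1β mice. Its groups were far apart, with a log2 fold change of -1.09 (SE 0.11, adjusted p = 1.49e-06, edgeR). Ugdh, which oxidises UDP-glucose to UDP-glucuronic acid, had 3194, 2688, 2775, 3503 and 4605 reads against 3864, 3734, 4512, 4219 and 3548, with overlapping groups. Its log2 fold change was 0.41 (SE 0.15, adjusted p = 0.042, edgeR). A rank-sum test of unscaled reads called Ugdh in none of the 6 tables (adjusted p 0.0710 to 0.250). Its call also fell in each Illumina table on leaving out 8 or more of the mice in turn (adjusted p of up to 0.114, edgeR), and in 3 tables without TMM factors (adjusted p of up to 0.0988).

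On the sulfate side, Slc26a1, which carries sulfate across the hepatocyte membrane, had 2640, 3062, 2980, 1947 and 1992 reads in saline mice and 1056, 497, 812, 977 and 931 in IL-1β mice. These groups did not overlap, and the log2 fold change was -1.38 (SE 0.18, adjusted p = 1.91e-05, edgeR), with -1.38 to -1.36 over the 6 tables. The Golgi PAPS transporters moved apart: Slc35b2 fell in all 6 tables (log2 fold change -0.55 to -0.45), and Slc35b3 was called higher in all 6 (0.48 to 0.63) with reads that overlapped in 4. The rank-sum test of unscaled reads lost the Slc35b3 call in 4 tables (adjusted p of up to 0.354). In edgeR the call was lost in the Ion Torrent GSNAP and STAR tables without mouse ILB_9579 or UNT_9576. In the latter table it was also lost without ILB_9582 or UNT_9575 (adjusted p of up to 0.0818). Without TMM factors it was lost in 1 table (adjusted p = 0.0778), and limma-voom lost it in the Ion Torrent STAR table (adjusted p = 0.0521).

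The deconjugation list held 6 genes: the β-glucuronidase Gusb, the sulfatases Sts, Arsa, Arsb and Arsg, and Sumf1. Of these, 5 were tested and 4 were called lower in all 6 tables, against 17.6% of all genes tested. Sts had no entry, and whether the others act on UGT or SULT products was not tested. Gusb, the lysosomal β-glucuronidase, fell by 0.77 to 0.58 on the log2 scale, and the sulfatases Arsb and Arsg by 0.54 to 0.49 and by 1.39 to 1.18. Sumf1, which activates sulfatases, fell by 0.40 to 0.28, and its call was lost in the 3 Ion Torrent tables without mouse UNT_9574 or ILB_9577, and in some of them without any of 6 others (adjusted p of up to 0.0866, edgeR). Without a filter on low counts the Sumf1 call was lost in the Ion Torrent GSNAP and STAR tables (adjusted p of up to 0.0689, edgeR). Arsa was called higher in the 3 Illumina tables and in no Ion Torrent table.

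Regulators known to act on UGT and SULT genes were read from a list of 9, all tested. Nr1i3 (CAR), a sensor of drugs and bilirubin that switches on Ugt1a1, had 7265, 6122, 5119, 3488 and 6684 reads in saline mice and 368, 211, 220, 256 and 336 in IL-1β mice of the Illumina GSNAP table. The lowest saline mouse was far above the highest IL-1β mouse, and the log2 fold change was -4.19 (SE 0.22, adjusted p = 4.33e-09, edgeR), with -4.21 to -3.84 over the 6 tables. Nr1i2 (PXR), Nr1h4 (FXR) and Esr1, the estrogen receptor, fell in all 6 tables, with log2 fold changes of -0.63 to -0.41, -0.40 to -0.32 and -0.83 to -0.71. The calls of Nr1h4 were lost in every table on leaving out 2 or more of UNT_9574, UNT_9576, UNT_9584, ILB_9577, ILB_9578 and ILB_9582 in turn (adjusted p of up to 0.133, edgeR), and in 1 table each with limma-voom, the rank-sum test and no filter on low counts (adjusted p = 0.0516, 0.0703 and 0.0612). The rank-sum test lost those of Esr1 in 2 tables (adjusted p of up to 0.110) and limma-voom in the Illumina GSNAP table (adjusted p = 0.0612). Hnf4a, a hepatocyte identity factor, had 9019, 9038, 8399, 7931 and 8503 reads against 16930, 14259, 14965, 15539 and 16405. Its groups were apart in the higher direction, with log2 fold changes of 0.93 to 1.05 over the 6 tables (adjusted p of 3.56e-07 to 1.01e-05, edgeR). Ahr, the dioxin receptor, was called higher in all 6 tables (0.49 to 0.68), and the rank-sum test of unscaled reads called it in none (adjusted p 0.0710 to 0.340). Without mouse ILB_9579, edgeR lost the Ahr call in the Illumina GSNAP and STAR tables (adjusted p = 0.0681 and 0.0578), and without TMM factors it was lost in 2 tables (adjusted p of up to 0.0678). Ppara and Rxra were called in no table, and Nfe2l2 was called lower in 5.

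**Figure D5:**
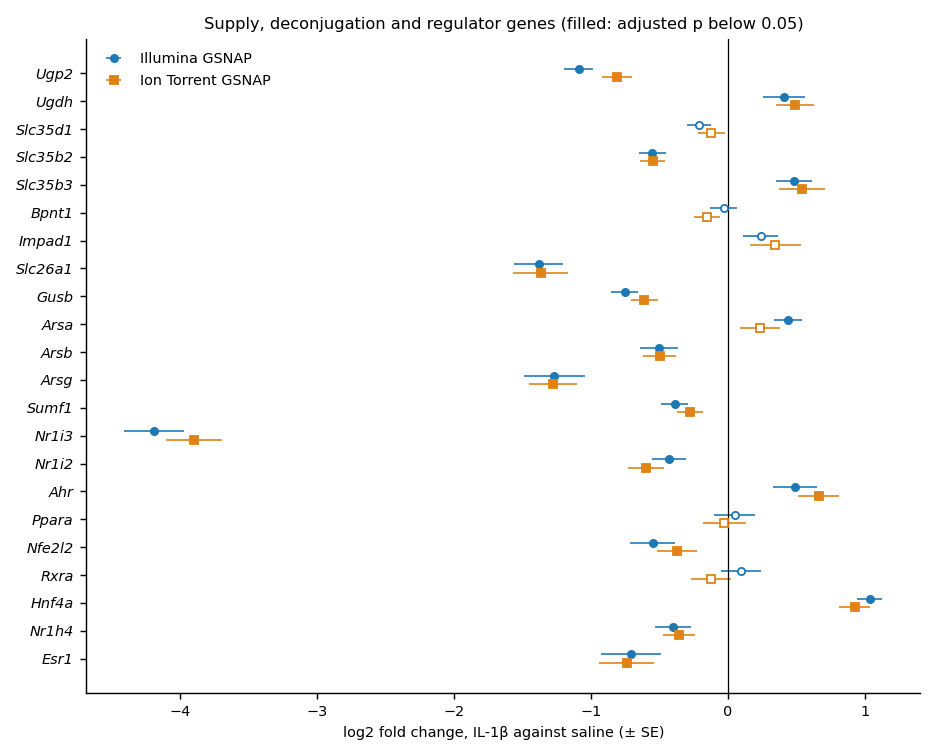
Log2 fold change (± SE of the edgeR fit, n = 5 mice a group) of the 22 tested genes of the supply, deconjugation and regulator lists in the Illumina GSNAP (blue circles) and Ion Torrent GSNAP (orange squares) tables; filled symbols have an adjusted p below 0.05. Nr1i3 lies near -4 on both platforms, and Hnf4a near 1.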

How the data were processed

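Liver RNA of 10 mice was sequenced on Illumina and Ion Torrent. The deposited values are whole-number counts per gene in 6 tables of 10 libraries. Per the study's methods, the authors aligned reads to mm9 with GSNAP, STAR 2.5.1b or STAR followed by Bowtie2 2.2.9 (versions from the submitters' processing notes, which date the GSNAP release). PORT then took out rRNA and mitochondrial reads, brought libraries down by random re-sampling to equal depth, and counted reads per Ensembl v67 gene. Each table is its own scale, so treatments were compared within a table. Whether an Illumina count is a read or a read pair is not given in the sources used here, and counts are called reads.

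Detected genes (5 or more reads in 5 of 10 libraries, in any table) were tested with edgeR 4.0.16 (R 4.3.3) quasi-likelihood after TMM scaling of full column totals, with no covariate, and p-values were adjusted by Benjamini-Hochberg over all 15578. The study's own test was the rank-sum test, an alternative here, since 5 against 5 mice gives it few p-values. It was run here on the deposited reads, without scaling by library total or TMM factor. The platform term took the mouse as a block. The titles give the same mouse for both libraries, and libraries of 1 mouse deviated from their group means with a correlation of 0.197 to 0.746. Fits were tested on simulated data with a log2 change of 1.5 planted in 200 of 15578 genes. In a single table edgeR recovered 200 of them, DESeq2 199, limma-voom 190 and the rank-sum test 0. The rank-sum outcome holds for that number of changed genes, which is far below the number called in these data. For the platform term edgeR recovered 199, and DESeq2 and limma-voom 197 each. Alternatives were DESeq2 1.42.0, limma-voom 3.58.1, the rank-sum test, other scaling and filters, a fold minimum, the fit without the block and leaving out each mouse. The genes of the 3 pathway lists were added to these alternatives after seeing the data.

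Values per mouse are given for Papss1, Papss2, members called in all 6 tables with an absolute log2 fold change of at least 1 in the Illumina GSNAP table, the member with the highest mean count of each detected family, and members whose sign differed between tables with a call in at least 1 table. List genes called in all 6 tables are given with their values, and the others by name or count. A gene and a promoter pattern beyond those described are not reported here. Other members given by mouse (Ugt1a5, Ugt1a7c, Ugt1a9, Ugt2a1, Ugt2a3, Ugt2b1, Ugt2b36, Ugt2b37, Ugt2b38 and Ugt3a1) were chosen after their values were seen. The members and lists were chosen with earlier results of these data known. Positions and exon lengths are from GENCODE M1 (mm9), which held all 41 members, because the coordinates in the tables differ between platforms. Slc13a1 was not detected, and Sts had no entry under that symbol.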

Additional observations from a re-analysis of the deposited data

Results flagged for a closer look

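Values in the GSNAP tables were searched for a mouse far from the other 4 of its group, with 88 groups of 5 mice looked at and chance expected to pick about 1 in 20. Ugt2b36 in saline mice of the Illumina GSNAP table had its highest value in mouse UNT_9584, at 1261 CPM against 878 in the next mouse, and the gap was 0.751 of the range of the group. On Ion Torrent the same mouse was again the highest saline mouse for Ugt2b36, at 1.28 times the lowest in CPM, and was not far enough from the others to be picked out. Without it the Illumina log2 fold change was -0.69 (adjusted p = 0.000197, edgeR). The other 3 were genes near 0 reads. Ugt1a8 in IL-1β mice was at 0.0928 CPM in mouse ILB_9578 of the Illumina GSNAP table and at 0.141 in the same mouse of the Ion Torrent GSNAP table, with 0 in the other 4 mice of both. Sult1e1 in saline mice of the Ion Torrent GSNAP table was at 0.265 CPM in mouse UNT_9580 and at 0 in the other 4.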

How the results depend on the processing

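Counts in this section have no share over all genes beside them, since none was worked out under these alternatives. Requiring an absolute log2 fold change above 1 left 6, 7, 9, 3, 3 and 4 members called lower. The order is Illumina GSNAP, STAR and STAR + Bowtie2, then Ion Torrent likewise, and the 9 include Ugt1a8, as a description. With the Ion Torrent GSNAP and STAR + Bowtie2 alignments only Sult1e1 was then called higher. It is a description for the reason given above, so no member outside it was called higher there. In each of the other tables Sult1e1 and Ugt2b38 were called higher. The rank-sum test, on unscaled reads, left 1, 0, 1, 1, 1 and 1 called higher. Each of these was Sult1e1, so no member outside that description was called higher by this test. For the count of 0, in the Illumina STAR table, 1 member had an unadjusted rank-sum p below 0.05. There edgeR, DESeq2 and limma-voom each called 3, Sult1e1 among them. Leaving TMM factors out shifted the median of all genes by -0.11 to -0.09 on the log2 scale. It left 1 called higher in the Ion Torrent STAR + Bowtie2 table, which was again Sult1e1. Leaving out single mice gave 15 to 20 members called lower and 2 to 4 called higher over the 6 tables, with Sult1e1 always among the higher.

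Without the replicate block, 2, 1 and 2 members had an unadjusted p below 0.05 for the platform term with GSNAP, STAR and STAR + Bowtie2, and 0 an adjusted one. Leaving out single mice gave 3 to 14, 4 to 13 and 5 to 16 at the unadjusted p, and 0 to 1, 0 and 0 to 1 at the adjusted p. The fitted change of Ugt2b37 in the Ion Torrent STAR + Bowtie2 table, -0.08, ranged from -0.22 to 0.061 over the mice left out, with 0.061 (higher) without UNT_9574. Without the Ugt1 locus the members' share in saline mice of the Ion Torrent GSNAP table was 0.40%. Ranked by count without division by length, Ugt2b36, Ugt2b1, Ugt2a3 and Sult1a1 were 3, 2, 6 and 9 of 30. Leaving out single mice moved Ugt1a5 between -0.49 and 0.11 (Illumina GSNAP), -0.52 and 0.065 (Illumina STAR), -0.50 and 0.060 (Illumina STAR + Bowtie2), -0.58 and 0.018 (Ion Torrent STAR) and -0.58 and 0.017 (Ion Torrent STAR + Bowtie2), with the positive values without UNT_9584. Near 0 reads, Sult2a6 ran from -0.76 to 0.0065 (Illumina STAR + Bowtie2) and -0.38 to 0.60 (Ion Torrent GSNAP), and Ugt2a1 from -0.51 to 0.17 (Ion Torrent STAR + Bowtie2). No other tested member, and no list gene called in all 6 tables, changed direction in these alternatives. The causes of these shifts were not tested. Members under about 10 reads per library, such as Sult1e1, Ugt1a8 and Sult2a7, are limited by depth.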
